A study of Mus musculus with 6 samples.

Results

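The SLC25 genes encode the mitochondrial carrier family, most of whose members sit in the inner mitochondrial membrane and move metabolites between cytosol and matrix. They were taken as the protein-coding rows of the deposited table whose symbol is Slc25a followed by a number, which gave 47 genes of the 78409 in the table. The uncoupling proteins Ucp1, Ucp2 and Ucp3 and the carrier homologues Mtch1 and Mtch2 belong to the same protein family under other symbols and are described separately. RNA was measured in whole hearts of mice at 11 months of age. There were 3 hearts with a cardiomyocyte-specific knockout of Ybx1, which encodes a Y-box RNA- and DNA-binding protein, and 3 hearts of littermates labelled as controls. The sources used here do not give the Cre driver, the alleles that the controls carried, the sex or the strain. Each library came from 1 heart, primed with oligo(dT), and held 12270796 to 15141525 counts.

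A carrier of this family is built from 3 related repeats that fold around a central substrate path, and each repeat can hold the family's signature, a proline, any residue, an acidic residue, any 2 residues and a basic residue. The ADP/ATP and phosphate carriers feed the ATP synthase, and the aspartate, glutamate and oxoglutarate carriers run the malate-aspartate shuttle. The carnitine carrier admits fatty acyl groups for oxidation. The heart, which draws most of its ATP from mitochondria, is a classic site of high ADP/ATP carrier content.

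The members were related in sequence, which bears on how reads could be assigned. In GENCODE M21, matched by gene identifier, the coding sequences of the 47 genes ran from 265 to 677 codons with a median of 318. The signature occurred 3 times in 27 members, 2 times in 12, once in 5 and not at all in 3 (Slc25a46, Slc25a51 and Slc25a53). The stretch around the first signature is shown for the ADP/ATP carriers, the most abundant group, with the 6 signature codons in capitals, as positions 52 to 129 of the coding sequence of Slc25a4 and of Slc25a5 and positions 91 to 168 of that of Slc25a31.
Slc25a4: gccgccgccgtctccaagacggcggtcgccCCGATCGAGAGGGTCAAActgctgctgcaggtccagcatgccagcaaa
Slc25a5: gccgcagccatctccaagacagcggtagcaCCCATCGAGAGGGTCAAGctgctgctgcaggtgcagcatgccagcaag
Slc25a31: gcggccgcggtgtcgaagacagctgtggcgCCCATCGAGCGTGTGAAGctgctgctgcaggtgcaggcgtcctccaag
Slc25a4 and Slc25a5 differed at 9 of these 78 bases and Slc25a4 and Slc25a31 at 21. Over the whole coding sequence Slc25a4 and Slc25a5 shared 78.7% of aligned bases, and their longest identical run was 20 bases. Slc25a5 shared a run of 97 bases with its processed pseudogene Slc25a5-ps, so reads of the gene and the pseudogene could be divided. The pseudogene was given 0.75 to 4.38 counts in a library. In all, 12 members, Slc25a3, Slc25a4 and Slc25a5 among them, had a fraction of a read in at least 1 library.

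The same stretch is shown for the calcium-sensitive ATP-Mg/phosphate carriers, since Slc25a23 had the smallest p of all members. It covers coding positions 580 to 657 of Slc25a23, 610 to 687 of Slc25a24 and 721 to 798 of Slc25a25.
Slc25a23: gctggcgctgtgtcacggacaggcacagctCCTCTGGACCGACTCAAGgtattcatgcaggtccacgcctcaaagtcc
Slc25a24: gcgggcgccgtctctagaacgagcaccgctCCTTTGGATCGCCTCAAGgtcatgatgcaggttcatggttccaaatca
Slc25a25: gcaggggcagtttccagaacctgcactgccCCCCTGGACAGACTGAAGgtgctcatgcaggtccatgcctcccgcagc
Slc25a23 differed from Slc25a24 at 22 and from Slc25a25 at 23 of the 78 bases, and its coding sequence was 65.2% and 71.5% identical to theirs.

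The labels and the libraries were checked first. Ybx1 was at 851, 813 and 898 normalised CPM in control hearts 1, 2 and 3, and the same-numbered knockout hearts had 203, 172 and 110.02 CPM. All 8 ventricular cardiomyocyte markers were expressed, with a summed level of 21008 to 25140 CPM in control and 17861 to 24298 CPM in knockout hearts, and the 3 lung epithelial markers were at 0 counts in every library. The summed level of 7 fibroblast markers was 637 to 763 CPM in control and 766 to 960 CPM in knockout hearts, and that of 5 macrophage and monocyte markers was 68.1 to 92.7 and 90.4 to 137 CPM. The 3 neutrophil markers gave 2.12 to 4.71 and 5.004 to 10.8 CPM and the 5 endothelial markers 414 to 563 and 248 to 607 CPM. The 5 smooth muscle and pericyte markers gave 507 to 630 and 404 to 692 CPM, the 4 atrial markers 124 to 385 and 94.3 to 309 CPM, and the 6 adipocyte markers 9.79 to 12.9 and 7.20 to 12.1 CPM. In whole hearts, fewer cells of a type and less RNA per cell cannot be told apart. Knockout heart 3 stood apart, since mitochondrial rRNA took 10.7% of its counts against 20.5% to 26.3% in the other 5 libraries. Malat1, an RNA of the nucleus, was at 668 deposited CPM there and at 3317 to 7923 CPM in the others. The highest Malat1 value and the lowest scaling factor, 0.806, belonged to control heart 2. For the larger differences named below, the value without 1 or both of these libraries is given where it was much smaller.

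Of the 47 members, 38 reached 1 CPM in at least 3 libraries and were tested. Slc25a4, the ADP/ATP carrier ANT1 of heart and muscle, stood far above the rest. It had 1911, 1362 and 1922 CPM in the control hearts and 1683, 1955 and 1937 CPM in the knockout hearts. It took 65.9% ± 2.49 of all counts of the 47 members in control and 63.2% ± 5.31 in knockout hearts (SD, n = 3 each), and its share was lowest, 57.2%, in knockout heart 3.

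To compare genes, levels were divided by the length of the longest annotated coding transcript. The transcript forms expressed in these hearts were not measured. Whether counts rise in proportion to transcript length after oligo(dT) priming was not tested. The order below therefore depends on the lengths taken and on this division. Slc25a4 was at 900 ± 166 CPM per kb in control hearts (SD, n = 3). The phosphate carrier Slc25a3 followed at 113 ± 31.5 and the oxoglutarate carrier Slc25a11 at 90.3 ± 22.4 CPM per kb. Their ranges over the hearts overlapped, though Slc25a3 was the higher within each control heart. The second ADP/ATP carrier Slc25a5 (ANT2, the form of dividing tissues) was at 47.1 ± 15.8 and the carnitine-acylcarnitine carrier Slc25a20 at 32.5 ± 6.61 CPM per kb. Their ranges overlapped too, with Slc25a5 the higher within each control heart. Slc25a13 was at 19.1 ± 4.49, the glutathione carrier Slc25a39 at 13.6 ± 3.63, the pyrimidine nucleotide carrier Slc25a33 at 9.24 ± 3.10 and the aspartate-glutamate carrier Slc25a12 at 8.12 ± 1.42 CPM per kb. The ranges of each and the next overlapped. Slc25a13 was above Slc25a39 in each control heart, while Slc25a33 was above Slc25a39 in control heart 2 and below Slc25a12 in control heart 1. Before division by length, Slc25a12 (6351 bases) had a control mean of 51.6 CPM and Slc25a33 (1887 bases) 17.4 CPM. The lowest tested member per kilobase was the orphan carrier Slc25a35, at 0.454 ± 0.0670 CPM per kb.

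The 9 members below the limit were nearly silent. Slc25a48 and Slc25a54 had 0 counts in all 6 libraries, where a count of 0 allows up to 0.198 to 0.244 CPM per library. Slc25a41, the ATP-Mg/phosphate carrier without a calcium-binding domain, had 1 count in 1 library. Slc25a2, Slc25a18, Slc25a21 and Slc25a43 had at most 5 counts in any library. Slc25a53 had 9 to 14 counts and so lay just under the limit, at 0.612 to 1.06 CPM, while Slc25a14, just inside it, had 0.455 to 1.78 CPM. Slc25a31, the ADP/ATP carrier of the testis, reached 8, 4 and 5 counts in control hearts 1, 2 and 3 but 0, 2 and 2 counts in knockout hearts 1, 2 and 3. Its groups did not overlap, at counts too low for the test.

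**Figure D1:**
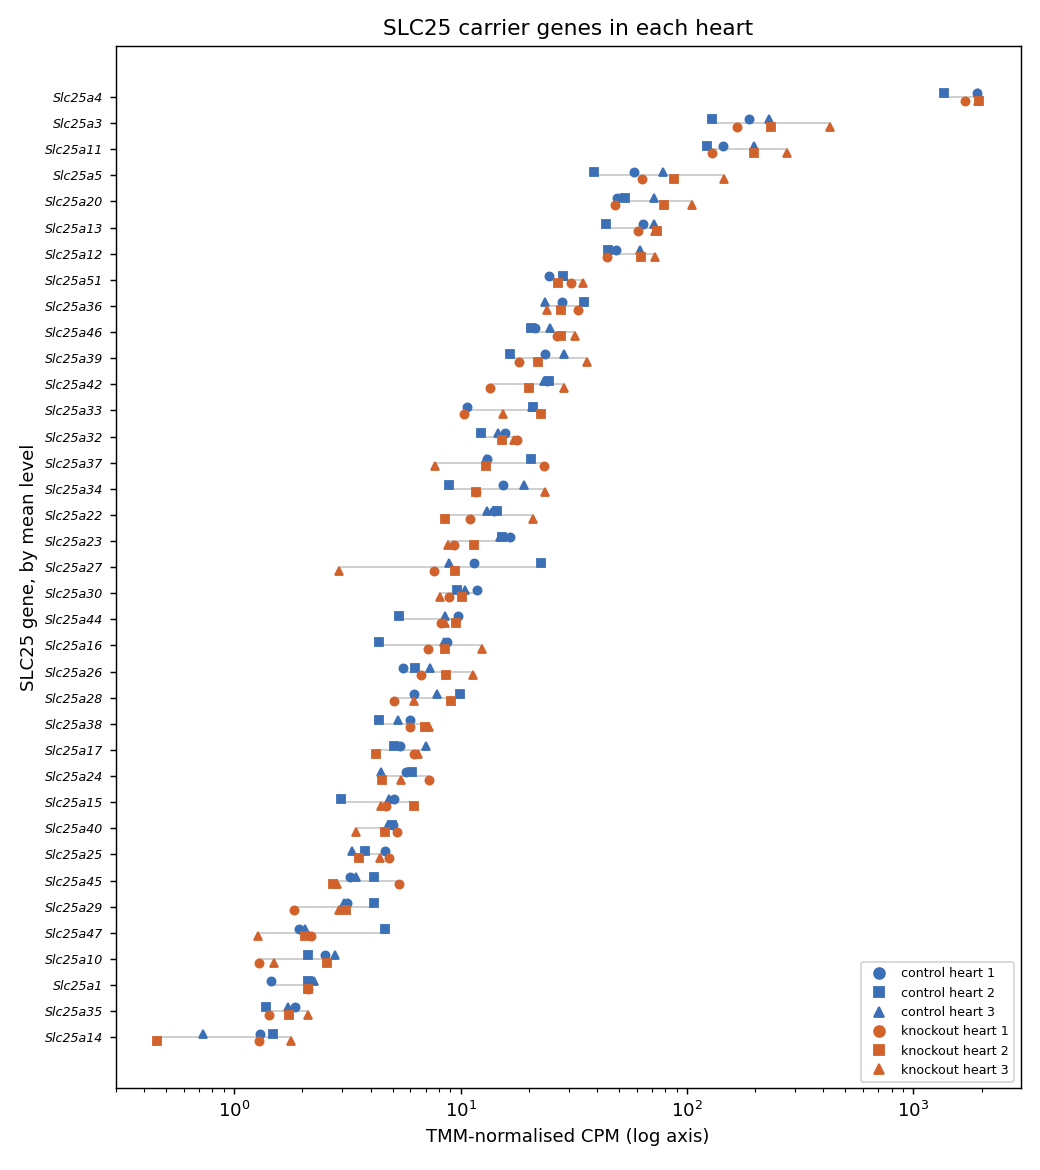
TMM-normalised CPM (log axis) of 37 of the 38 tested SLC25 genes in each of the 6 hearts, ordered by mean level, with 1 point per heart, blue for control and orange for knockout. Slc25a4 lies at 1362 CPM or above in every heart, and for Slc25a3, Slc25a5 and Slc25a11 knockout heart 3 is the highest and control heart 2 the lowest of the 6.

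Knockout and control hearts were then compared for each member, to ask which carrier transcripts differ when cardiomyocytes lack Ybx1. No member passed edgeR's quasi-likelihood test at an adjusted p of 0.05 over all 13717 genes, where 0% of genes passed, and the smallest adjusted p of a member was 0.694. Ybx1 itself, lower in every knockout heart than in every control heart, did not pass either. A member that did not pass can therefore not be read as unchanged. At an unadjusted p under 0.05 there were 2 members of 38, beside 5.14% of all tested genes. Both were lower in knockout, where 2.45% of all genes were, and none was higher, where 2.69% were. DESeq2 called 0 members and 15 of all genes, with 3 members and 5.08% of all genes at an unadjusted p under 0.05. The knockout and control hearts did not overlap for 2 members, 5.26% of those tested, beside 12.1% of all genes, with 1 higher (6.26% of all genes) and 1 lower (5.82%). The median log2 fold change, knockout relative to control, was 0.10 over the members and 0.01 over all genes, with 23 members above and 15 below 0. Members above 0 made up 60.5%, beside 51.1% of all genes. Without a scaling factor between libraries the split was 28 above and 10 below, and the median of all genes shifted to 0.17. A 95% interval narrower than 2-fold in both directions was found for 26 members (68.4%), beside 63.5% of all genes.

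**Figure D2:**
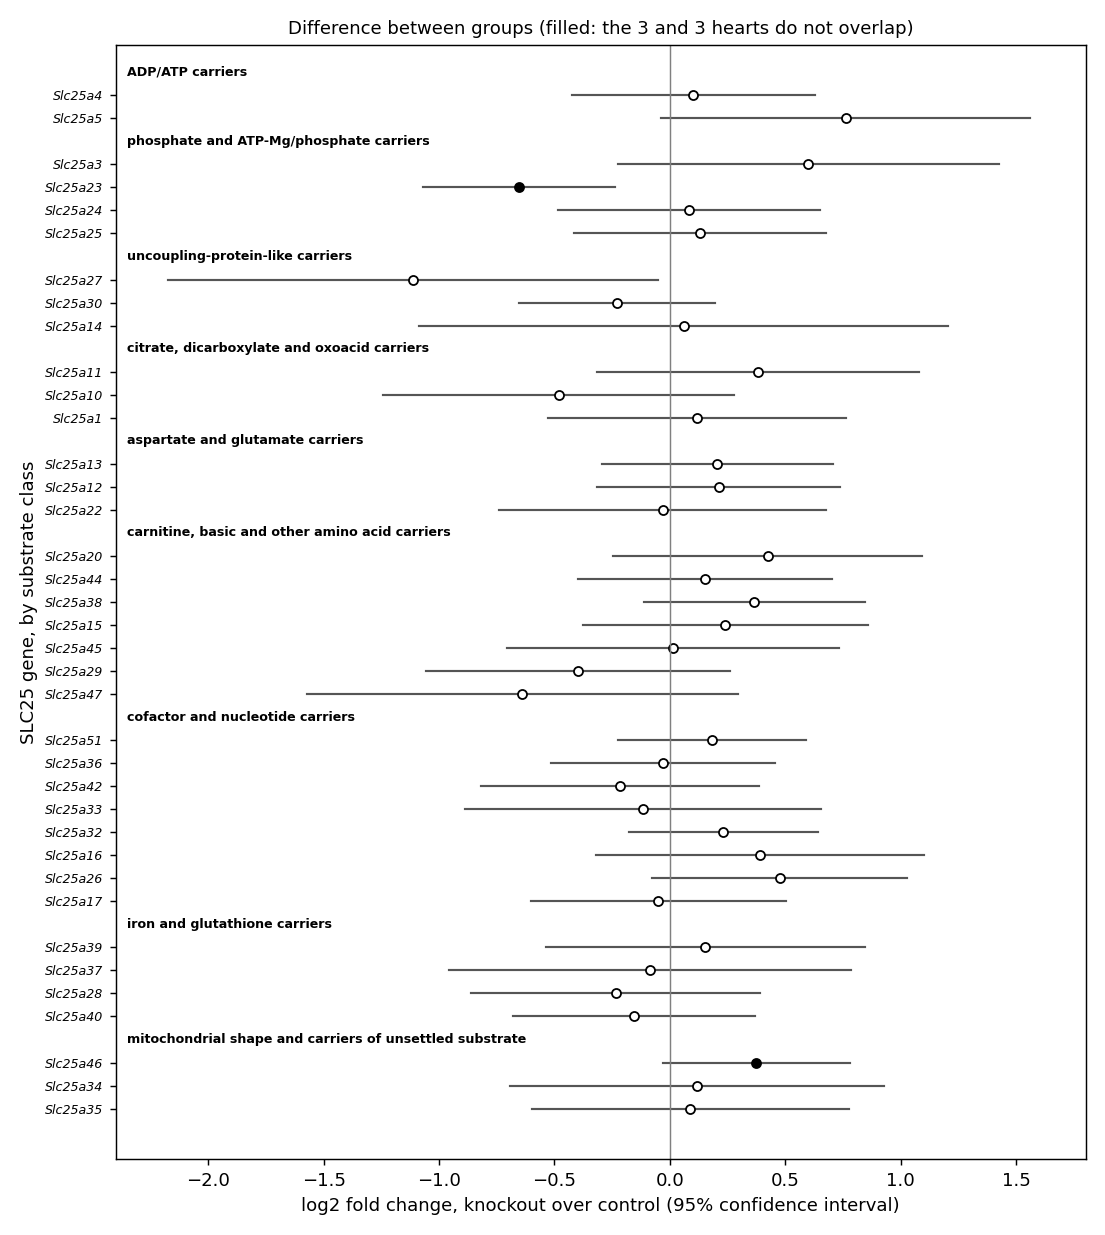
Log2 fold change of 37 of the 38 tested SLC25 genes, knockout relative to control, with 95% confidence intervals from edgeR, grouped by substrate class; filled points mark genes whose 3 knockout and 3 control hearts do not overlap. The filled points are Slc25a23, at -0.65, and Slc25a46, at 0.37, and the intervals of Slc25a23 and Slc25a27 lie below 0.

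Among the phosphate and ATP-Mg/phosphate carriers, 4 of 5 genes were tested. Slc25a23 encodes a calcium-sensitive carrier that exchanges ATP-Mg for phosphate and so sets the adenine nucleotide content of the matrix. It had 16.5, 15.2 and 14.9 CPM in the control hearts and 9.38, 11.5 and 8.78 CPM in the knockout hearts. Every knockout heart was below every control heart. The means were 15.5 ± 0.852 and 9.87 ± 1.40 CPM (SD, n = 3 each). The log2 fold change was -0.65 (SE 0.18, interval -1.07 to -0.24), with an unadjusted edgeR p of 0.00620 and an adjusted p of 0.694. Its value lay between -0.79 and -0.58 when each library was left out in turn and was -0.59 without control heart 2 and knockout heart 3. The gene had a fraction of a read in at least 1 library.

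The 2 other calcium-sensitive carriers of this type had lower levels and overlapping groups. Slc25a24 was at 5.74, 6.10 and 4.44 CPM in control hearts and 7.27, 4.48 and 5.45 CPM in the knockouts (a log2 fold change of 0.08, interval -0.48 to 0.65). Slc25a25 was at 4.61, 3.79 and 3.32 CPM in control and 4.82, 3.57 and 4.39 CPM in knockout hearts (0.13, interval -0.42 to 0.68). The difference between the fold change of Slc25a23 and theirs was not tested.

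Slc25a3, which carries phosphate and copper into the matrix, had 188, 129 and 229.6 CPM in the control hearts and 166, 235 and 427 CPM in the knockout hearts. Knockout hearts 1 and 2 lay within the range of the controls or close above it, and knockout heart 3 was far above every other heart. The log2 fold change was 0.60 (interval -0.23 to 1.42). It was 0.14 without knockout heart 3, and -0.06 without control heart 2 and knockout heart 3, so its size rested on these libraries.

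The ADP/ATP carriers gave 2 tested genes. For Slc25a4 the log2 fold change was 0.10 (interval -0.42 to 0.63), and it turned to -0.06 without control heart 2, the lowest heart. Slc25a5 had 58.2, 38.9 and 78.1 CPM in control hearts and 63.1, 87.9 and 146 CPM in knockout hearts. The groups overlapped, and knockout heart 3 was the highest. The log2 fold change was 0.76 (interval -0.04 to 1.56, edgeR adjusted p 0.694), 0.37 without knockout heart 3 and 0.15 without control heart 2 and knockout heart 3. Slc25a5 lies on the X chromosome. The X-inactivation RNA Xist was at 387 deposited CPM in control heart 1 and 201 CPM in knockout heart 3 and below 3 CPM in the other hearts. Without those 2 libraries the log2 fold change of Slc25a5 was 0.36, beside 0.37 without knockout heart 3 alone. A part of Xist expression in this value cannot be told apart from that of knockout heart 3 and was not tested.

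Ratios within a library do not depend on how libraries are scaled, and 3 were compared. Each was taken per kilobase of the longest coding transcript, so its level depends on that length. The share of Slc25a5 in Slc25a4 plus Slc25a5, per kilobase, was 4.52%, 4.24% and 5.94% for controls and 5.50%, 6.52% and 10.5% for knockouts. The means were 4.90% ± 0.908 and 7.50% ± 2.63 (SD, n = 3 each; exact permutation p 0.2, adjusted over the 3 ratios 0.6). Knockout heart 1 lay below control heart 3, so the groups overlapped. With 3 hearts a group, the smallest p this two-sided exact test allows is 0.1. The difference of 2.60 percentage points was 1.11 without knockout heart 3 and at most 3.604, without knockout heart 1. Slc25a5 (1240 bases) has a shorter transcript than Slc25a4 (1925 bases). Shorter transcripts tended to be higher in knockout heart 3 (Spearman rho -0.29 with length across 11520 protein-coding genes). The part of transcript length in this share was not tested.

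**Figure D3:**
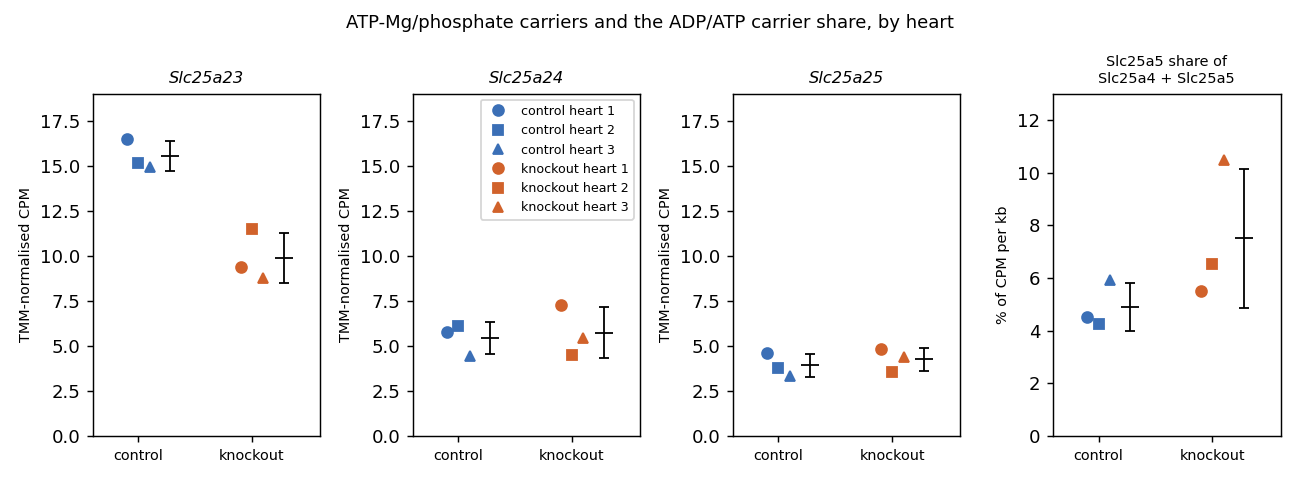
TMM-normalised CPM of Slc25a23, Slc25a24 and Slc25a25, and the share of Slc25a5 in Slc25a4 plus Slc25a5 in percent of CPM per kb, for each heart, with 1 point per heart and the mean and SD of each group of 3 as a bar beside it. All 3 knockout hearts lie below all 3 control hearts for Slc25a23, and the points of the groups overlap in the other panels.

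The aspartate and glutamate carriers supply the malate-aspartate shuttle, which brings the reducing equivalents of NADH into the matrix. The aspartate-glutamate carrier Slc25a12 (aralar) had 48.4, 44.5 and 61.8 CPM in control hearts and 44.5, 62.4 and 72.2 CPM in the knockouts (a log2 fold change of 0.21, interval -0.32 to 0.74, and 0.05 without knockout heart 3). Its paralogue Slc25a13 (citrin) had 63.7, 44.1 and 71.2 CPM in control and 60.8, 73.4 and 72.3 CPM in knockout hearts (0.21, interval -0.29 to 0.71, and 0.02 without control heart 2). The groups overlapped for both. Their balance differed by less than the spread between hearts. Slc25a13 made up 69.9% ± 3.00 of the 2 per kilobase in control and 70.4% ± 3.22 in knockout hearts (SD, n = 3 each; exact permutation p 0.7, adjusted 1). The level of this share depends on the transcript lengths taken. Before division by length the control means of Slc25a13 and Slc25a12 were 59.7 and 51.6 CPM. Slc25a11, the oxoglutarate-malate exchanger of the shuttle, had 144, 123 and 197 CPM in control hearts and 129, 198 and 277 CPM in knockout hearts. Its log2 fold change of 0.38 (interval -0.32 to 1.08) was 0.08 without knockout heart 3. The glutamate carrier Slc25a22 had 14.0, 14.4 and 13.1 CPM in control hearts, and its knockout hearts spread widely around them, at 11.0, 8.57 and 20.9 CPM.

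Other carriers of organic acids were scarce. The citrate carrier Slc25a1 had 1.46 to 2.26 CPM and the dicarboxylate carrier Slc25a10 had 1.29 to 2.79 CPM over the 6 hearts, with log2 fold changes of 0.12 and -0.48 and overlapping groups.

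Of the carnitine and amino acid carriers, Slc25a20 was the most abundant, with 49.2, 53.4 and 71.4 CPM in control and 48.2, 79.4 and 106 CPM in knockout hearts. Its groups overlapped, and the log2 fold change of 0.42 (interval -0.25 to 1.09) was 0.14 without knockout heart 3. Slc25a29, a carrier of basic amino acids, had 3.15, 4.16 and 3.05 CPM in control and 1.83, 3.11 and 2.89 CPM in knockout hearts (-0.40, interval -1.05 to 0.26, and -0.26 without control heart 2). Slc25a38, a glycine carrier needed for haem synthesis, had 5.99, 4.34 and 5.31 CPM in control and 5.98, 6.98 and 7.23 CPM in knockout hearts (0.37, interval -0.11 to 0.84, and 0.24 without control heart 2). Its groups overlapped by less than 0.1 CPM. Slc25a47, a carrier known from liver, had 1.94, 4.62 and 2.06 CPM in control and 2.17, 2.05 and 1.28 CPM in knockout hearts. Its high value in control heart 2 gave the log2 fold change of -0.64, which was -0.15 without that heart. Slc25a15, Slc25a44 and Slc25a45 had log2 fold changes of 0.24, 0.15 and 0.01.

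The uncoupling-protein-like carriers held the second member with an unadjusted edgeR p under 0.05. Slc25a27 (UCP4), known mainly from brain, had 11.4, 22.6 and 8.89 CPM in the control hearts and 7.61, 9.41 and 2.89 CPM in the knockout hearts. Control heart 2 was the highest and knockout heart 3 the lowest, and knockout heart 2 lay above control heart 3. The log2 fold change was -1.11 (SE 0.47, interval -2.17 to -0.05), with an unadjusted edgeR p of 0.0417 and an adjusted p of 0.694. It was -0.63 without control heart 2, -0.74 without knockout heart 3 and -0.25 without both. Slc25a30 and Slc25a14 had log2 fold changes of -0.23 and 0.06.

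All 9 carriers of cofactors and nucleotides were tested, 4 above and 5 below 0. Slc25a51, the NAD carrier, had 24.6, 28.4 and 28.4 CPM in control hearts and 30.7, 27.0 and 34.6 CPM in the knockouts (a log2 fold change of 0.18, interval -0.22 to 0.59). The S-adenosylmethionine carrier Slc25a26 had 5.58, 6.28 and 7.30 CPM in control and 6.66, 8.65 and 11.3 CPM in knockout hearts (0.48, interval -0.08 to 1.03, and 0.25 without knockout heart 3). For Slc25a26 a single pair of hearts overlapped. Slc25a16, tied to coenzyme A, had 8.74, 4.34 and 8.42 CPM in control and 7.20, 8.57 and 12.5 CPM in knockout hearts, and its log2 fold change of 0.39 was 0.13 without knockout heart 3 and also without control heart 2. The pyrimidine nucleotide carriers differed in spread. Slc25a36 had 28.1, 34.9 and 23.5 CPM in control and 32.9, 27.8 and 24.02 CPM in knockout hearts (-0.03, interval -0.52 to 0.46). Slc25a33 had 10.7, 20.9 and 20.8 CPM in control and 10.4, 22.5 and 15.4 CPM in knockout hearts (-0.12, interval -0.89 to 0.66), with 1 low heart in each group. Slc25a17, a carrier of peroxisomes, Slc25a32 and Slc25a42 had log2 fold changes of -0.05, 0.23 and -0.21.

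The iron carriers supply haem and iron-sulphur cluster synthesis. Slc25a37 (mitoferrin 1), the form of red cell precursors, had 13.02, 20.5 and 13.001 CPM in control and 23.2, 12.9 and 7.67 CPM in knockout hearts. Slc25a28 (mitoferrin 2) had 6.23, 9.98 and 7.83 CPM in control and 5.10, 9.10 and 6.23 CPM in knockout hearts. Neither gene separated the groups, with log2 fold changes of -0.09 and -0.24. Slc25a37 made up 62.6% of the 2 per kilobase in knockout heart 1 and 31.2% to 43.5% in the other 5 hearts (exact permutation p 1, adjusted 1). None of the 6 erythroid markers, globins and Alas2 among them, was at 0 in all libraries. Their summed level was also highest in knockout heart 1, at 6851 CPM. Control heart 2 followed, at 4717 CPM, beside 3042 to 4166 CPM in the other 4 hearts. At the low end the order differed. The sum was lowest in control heart 3, at 3042 CPM, and Slc25a37 in knockout heart 3, where the sum was 4166 CPM. The part of red cell RNA in the Slc25a37 values was not tested. The glutathione carriers Slc25a39 and Slc25a40 had log2 fold changes of 0.15 and -0.15, and that of Slc25a39 was -0.20 without knockout heart 3.

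Slc25a46, an outer-membrane protein with a role in mitochondrial shape, had 21.3, 20.5 and 24.8 CPM in control hearts and 26.6, 27.7 and 32.0 CPM in knockout hearts. Every knockout heart was above every control heart. The means were 22.2 ± 2.29 and 28.8 ± 2.85 CPM (SD, n = 3 each), with a log2 fold change of 0.37 (SE 0.18, interval -0.03 to 0.78, edgeR adjusted p 0.694). It was between 0.29 and 0.46 with each library left out in turn and 0.24 without control heart 2 and knockout heart 3. Slc25a34, an orphan carrier, had 15.4, 8.87 and 19.04 CPM in control hearts and 11.7, 11.7 and 23.6 CPM in knockout hearts, and its log2 fold change of 0.12 turned to -0.31 without knockout heart 3.

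Single libraries stood at the ends of the range for many members. Knockout heart 3 was the highest of the 6 hearts for 16 of the 38 tested members and the lowest for 7, and it was the highest for 33.9% and the lowest for 34.3% of all tested genes. Control heart 2 was the lowest for 14 members and the highest for 6, where all genes gave 25.2% and 27.9%. The log2 difference of Slc25a3 from the other 2 hearts of the same group was 1.11 in knockout heart 3 and -0.69 in control heart 2. Slc25a5 gave 0.97 and -0.79. Slc25a27 showed the opposite, at -1.40 and 1.13, and Slc25a37 likewise, at -1.13 and 0.64. Slc25a4 moved with control heart 2 (-0.49) and hardly with knockout heart 3 (0.09). Across the 38 members the 2 deviations had a Spearman rho of -0.52, and -0.66 across 11520 protein-coding genes. Members with shorter transcripts tended to be higher in knockout heart 3 (rho -0.30 with transcript length, and -0.29 across those 11520 genes). For control heart 2 the rho with length was 0.04 across the members and 0.25 across those genes. Genes of a library share its depth and composition and are not independent replicates.

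**Figure D4:**
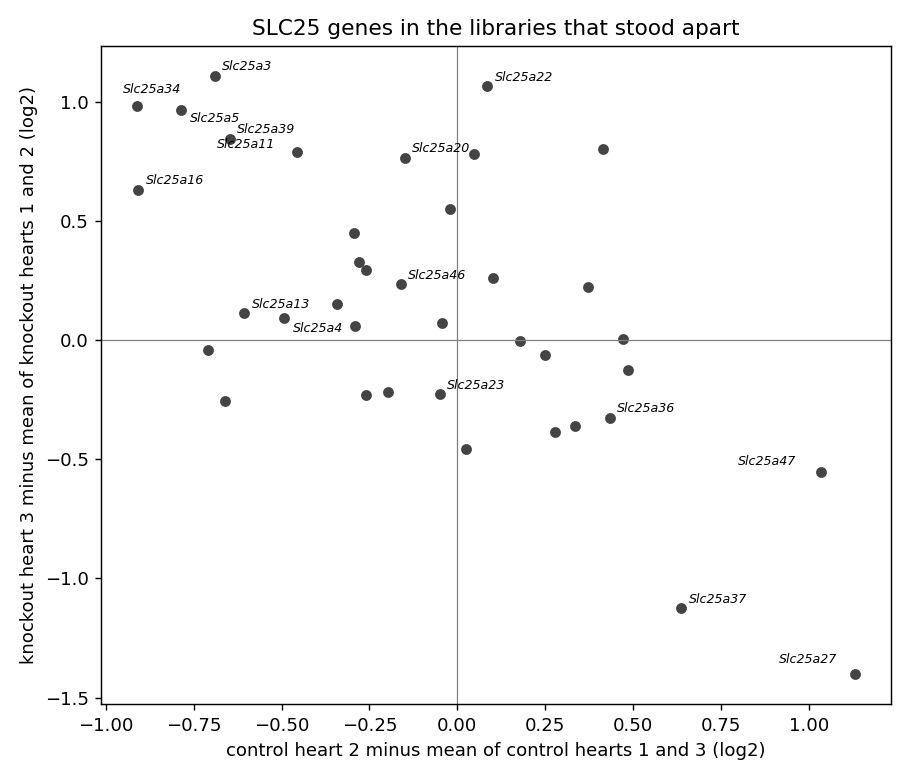
For each of the 38 tested SLC25 genes, the log2 difference of control heart 2 from the other 2 control hearts (x axis) and of knockout heart 3 from the other 2 knockout hearts (y axis). Slc25a3 and Slc25a5 lie at the upper left and Slc25a27 and Slc25a37 at the lower right.

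The summed level of the members followed the same libraries. It was 2780, 2128 and 2960.3 CPM in the control hearts and 2500.4, 3007 and 3387 CPM in the knockout hearts, or 2623 ± 438 and 2965 ± 445 CPM (SD, n = 3 each). The ratio of the means was 1.13 and fell to 1.03 without control heart 2.

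Genes that work beside the carriers were read from lists chosen by function, and none of their tested genes passed edgeR's adjusted threshold. From each list the 2 genes with the smallest unadjusted p are named, and Ucp1 and Ppargc1a besides. Groups did not overlap for 1 of 4 tested carrier homologues, 1 of 7 import genes and 2 of 21 transport genes. The enzymes gave 1 of 14 and the regulators 2 of 9, beside 12.1% of all genes. In the same order, 1, 1, 1, 0 and 1 genes had an unadjusted edgeR p under 0.05, beside 5.14% of all genes. The counts above 0 given below stand beside 51.1% of all genes. Of the carrier homologues under other symbols 4 of 5 were tested. Ucp2, an uncoupling protein found in many cell types, had 6.15, 6.37 and 6.10 CPM in control hearts and 8.29, 9.25 and 11.6 CPM in knockout hearts, without overlap (log2 fold change 0.65, interval 0.19 to 1.10, edgeR adjusted p 0.694). Ucp3, the uncoupling protein of muscle, had 12.3, 12.1 and 8.09 CPM in control and 8.56, 4.48 and 9.40 CPM in knockout hearts (-0.52, interval -1.21 to 0.16). The list of 5 skeletal muscle markers was Ckm, Acta1, Myh4, Myh1 and Tnnt3, of which 2 reached the testing limit. These 5 summed to 829 to 1308 CPM in control and 431 to 851 CPM in knockout hearts. Whether this RNA came from skeletal muscle or cardiomyocytes was not tested, nor was its part in the Ucp3 values. Ucp1, which marks brown fat, had at most 0.0809 CPM in any heart.

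TOM70 and the TIM22 complex bring carriers into the inner membrane. Of 7 import genes 6 lay above 0. The list had a median of 0.41 on the log2 scale, 0.14 without knockout heart 3 and 0.002 without control heart 2 and knockout heart 3. Timm10, a small chaperone of the intermembrane space, had 7.93, 5.91 and 9.35 CPM in control and 9.24, 11.3 and 20.96 CPM in knockout hearts (0.84, interval 0.09 to 1.58, but 0.40 without knockout heart 3). Timm10b, a partner at the TIM22 complex, had 22.3, 17.6 and 24.2 CPM in control and 24.7, 28.1 and 32.1 CPM in knockout hearts, without overlap (0.41, interval -0.05 to 0.86, and 0.18 without control heart 2 and knockout heart 3).

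Of 21 other mitochondrial transport genes 15 lay above and 6 below 0, with a median of 0.07. Sfxn2, a sideroflexin, had 3.88, 6.56 and 3.85 CPM in control and 2.85, 3.03 and 1.78 CPM in knockout hearts, without overlap (-0.90, interval -1.63 to -0.17, and -0.39 without control heart 2 and knockout heart 3). Vdac2, a channel of the outer membrane, had 118, 97.6 and 143 CPM in control and 123, 158 and 226 CPM in knockout hearts (0.50, interval -0.10 to 1.10, and 0.23 without knockout heart 3). The enzymes beside the carriers (14 genes, 9 above 0) had a median of 0.12. Among them Mdh1, the cytosolic enzyme of the malate-aspartate shuttle, had 173, 105 and 227 CPM in control and 126, 228 and 724 CPM in knockout hearts, and its log2 fold change of 1.09 was 0.07 without knockout heart 3. Crat, carnitine acetyltransferase, had 138, 134 and 165 CPM in control and 104, 133 and 110.1 CPM in knockout hearts, without overlap by a narrow margin (-0.33, interval -0.77 to 0.11).

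Of 9 transcriptional regulators of mitochondrial genes 6 lay above 0, with a median of 0.05. Tfam, the transcription factor of the mitochondrial genome, had 6.55, 5.91 and 6.70 CPM in control and 8.56, 8.04 and 14.9 CPM in knockout hearts, without overlap (0.72, interval 0.11 to 1.33, edgeR adjusted p 0.694, and 0.38 without knockout heart 3). Ppargc1b, a coactivator of mitochondrial genes, had 55.2, 41.9 and 39.4 CPM in control and 38.2, 34.9 and 28.3 CPM in knockout hearts, also without overlap (-0.43, interval -0.90 to 0.04). Its paralogue Ppargc1a, at 125 ± 25.8 and 129.8 ± 30.6 CPM (SD, n = 3 each), gave 0.05.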

How the data were processed

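The deposited table holds estimated counts (the authors' counts, some with a fraction of a read) and CPM for each library. Dividing each count by its library's total gave the CPM that the authors list, within rounding. Per the submitters' processing notes, the build is mm39, and edgeR 4.0.16, Subread 2.1.1, featureCounts, SAMtools 1.22.1 and STAR 2.7.11 are named. The sources used here do not give the annotation release, the strand setting or the treatment of multiply mapped reads. Counts were rounded, genes with at least 1 CPM in at least 3 libraries kept (13717), and tested with edgeR 4.0.16 (quasi-likelihood, TMM scaling, Benjamini-Hochberg over all tested genes, two-sided, R 4.3.3). Normalised CPM carry the TMM factors. Alternatives used DESeq2 1.42.0, limma 3.58.1 on log2(deposited CPM + 0.5), and other filters, scalings and left-out libraries. Steps were tested on simulated data. Transcript lengths and coding sequences came from GENCODE M21 (GRCm38), another build than the counts. Named members were the 10 most abundant, the 8 with the smallest p, the 4 with the largest control spread and fixed paralogue groups, and others are given by value. Of the tested members, 1 is not reported here by name, though it is counted. The members and lists were chosen with earlier results of these data known. A count of 0 was read as up to 3 counts, for counting error only.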

Additional observations from a re-analysis of the deposited data

How the results depend on the processing

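Of 17 alternatives, all but 1 called 0 members at an adjusted p of 0.05. The fit without a filter on low values called 1, Slc25a27, and 133 of all genes, with 5 members at an unadjusted p under 0.05 (7.48% of all genes) and 4 without overlap (8.71%), and called 1 gene of the enzyme list, Mdh1. Heart numbers were not taken to pair the hearts, since the titles do not say that a number marks a litter or batch. The deviations of same-numbered hearts had correlations of -0.11, 0.45 and 0.58, and those of other pairs ran from -0.70 to 0.57. Whether the numbers pair the hearts was not tested. With the replicate block 4 members and 13.2% of all genes had an unadjusted p under 0.05. That edgeR fit called 0 members and 5 of all genes, and the smallest adjusted p of a member was 0.118, for Slc25a27. Without a scaling factor the members' median was 0.27 with 4 not overlapping (8.23% of all genes), and limma-trend with a pseudocount of 0.5 gave 0.22. Slc25a36, Slc25a33 and Slc25a22 turned to 0.15, 0.0240 and 0.18 without a scaling factor, to 0.13, 0.0372 and 0.0219 with limma-trend, and to 0.13, 0.0330 and 0.0327 with a pseudocount of 2. Both limma-trend fits used the deposited CPM and so had no scaling factor either. The median of all genes was 0.14 with a pseudocount of 0.5 and 0.12 with a pseudocount of 2. Slc25a37 turned to 0.10 without a scaling factor and Slc25a22 to 0.00181 without a filter. With each library left out in turn, 1 to 6 members had an unadjusted p under 0.05 (1.46% to 12.7% of all genes), and 3 to 14 did not overlap. The 3 came without control heart 2, where 15.8% of all genes did not overlap. The 14 came without knockout heart 1, where 32.3% of all genes did not overlap. The same fits gave -0.0558 to 0.18 for Slc25a4, -0.16 to 0.12 for Slc25a36, -0.31 to 0.37 for Slc25a34, -0.60 to 0.23 for Slc25a37, -0.45 to 0.12 for Slc25a33, -0.12 to 0.22 for Slc25a24, -0.50 to 0.20 for Slc25a22 and -0.17 to 0.20 for Ppargc1a, -1.10 to 2.11 percentage points for the Slc25a13 share and -8.76 to 6.97 for the Slc25a37 share. The 2 alternatives that follow were chosen after seeing the data. Without control heart 2 and knockout heart 3 the median was -0.0232, with 4 members at an unadjusted p under 0.05 (3.92% of all genes) and 7 without overlap (30.8%), and the lists of import genes and enzymes had medians of 0.00185 and -0.16. There Slc25a4, Slc25a3, Slc25a11, Slc25a13, Slc25a12, Slc25a34 and Slc25a16 turned to -0.0750, -0.0593, -0.0617, -0.00835, -0.0439, -0.56 and -0.12, and Slc25a36, Slc25a47, Slc25a28, Slc25a37 and Slc25a33 to 0.23, 0.0777, 0.00255, 0.48 and 0.0544, while Mdh1 turned to -0.18. Without the hearts that express Xist, 1 member had an unadjusted p under 0.05 (2.88% of all genes) and 6 did not overlap (26.8%), and Slc25a36, Slc25a34 and Slc25a37 turned to 0.0551, -0.27 and 0.11. Slc25a23, Slc25a5, Slc25a46 and Slc25a27 kept their direction in every alternative. So did the other members named by rule outside the 14 that reversed. All these fits reuse the same 6 libraries, and without control heart 2 and knockout heart 3 Slc25a5 and Slc25a27 were at 0.15 and -0.25. Of the values of the 25 members named by rule, 381 kept their direction and side of the threshold and 40, over 14 members, reversed. The causes of these shifts were not tested. The 9 untested members had at most 14 counts in a library.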
